A study of Homo sapiens with 2 samples.

Results

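The zinc finger genes of chromosome 19p12, the band of the short arm that lies next to the centromere, were examined in substate 1 and substate 2 cells of the H9 line. The 36 genes run from ZNF101 to ZNF254. They were chosen by their position and because neighbouring genes here had been seen to be low in substate 2 on the same pair of arrays, so the direction of the shift is what the choice rested on and is described here without a test. Of the 36 genes, 31 had a probe that matched by RefSeq accession, against 22439 genes with such a probe on the whole array. No probe was matched in this way for ZNF506, ZNF66, ZNF738, ZNF98 and ZNF724. The 31 genes had 48 probes, of which 43 were well above background on both arrays and 5 on neither array. These 43 probes measured 30 members, and 16001 genes were measured on both arrays in all.

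H9 is an established line of human embryonic stem cells. Per the labels, the cells of both samples were grown on Matrigel, a basement membrane extract, in the serum-free medium TeSR-E8. Substate 1 (passage 35) is the name given to typical colonies with strong staining for the R-10G epitope and almost none for vimentin, and substate 2 (passage 50) that given to looser colonies with weak R-10G and strong vimentin staining. After sorting by vimentin, cells of either substate gave rise to colonies of both kinds again, so neither is a fixed line. Total RNA of each substate was hybridised to 1 single-colour Agilent array, so there is no replicate, no test between the substates was possible, and neither passage nor time on Matrigel, which by the study's methods began at passage 35, can be told apart from substate. Since the RNA came from bulk cultures, fewer expressing cells and less RNA per cell cannot be told apart either.

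These genes encode proteins with a row of C2H2 zinc fingers, which read DNA, and in most cases a KRAB domain, which recruits the corepressor TRIM28. TRIM28 in turn brings the histone methyltransferase SETDB1 and heterochromatin proteins, and the bound DNA is packed away under methylated histone H3. Many such proteins bind retrotransposons, and this silencing is known to be active in pluripotent stem cells. The 19p12 genes arose by repeated tandem duplication in primates, and their coding sequences are alike. A probe for one of them may therefore bind RNA of another. The probe letters were not used here, and how much each probe binds a paralogue was not tested.

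The duplications are visible in the promoters. A window of 250 bases before to 50 bases after the transcription start was at hand for 28 of the 36 members (RefSeq, GRCh38.p14). Among all stretches of 12 letters in these windows, none was shared by more members than CTGTCACTCAGG, and GTCCAATCAGGC, shared by as many, does not overlap with it. The 250 bases before the start are shown for 5 members and for a zinc finger gene of chromosome 7, with exact matches of both blocks in capitals. ZNF431 and ZNF90 were among the lowest members in substate 2, ZNF43 and ZNF101 were the highest, and ZNF91 is the best known.
ZNF431, chr19:21141790-21142039, plus strand: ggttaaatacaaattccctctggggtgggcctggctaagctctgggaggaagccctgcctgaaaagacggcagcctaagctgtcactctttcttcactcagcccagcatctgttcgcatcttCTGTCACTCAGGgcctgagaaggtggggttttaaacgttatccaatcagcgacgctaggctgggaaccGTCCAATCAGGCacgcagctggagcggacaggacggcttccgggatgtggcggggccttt
ZNF90, chr19:20077750-20077999, plus strand: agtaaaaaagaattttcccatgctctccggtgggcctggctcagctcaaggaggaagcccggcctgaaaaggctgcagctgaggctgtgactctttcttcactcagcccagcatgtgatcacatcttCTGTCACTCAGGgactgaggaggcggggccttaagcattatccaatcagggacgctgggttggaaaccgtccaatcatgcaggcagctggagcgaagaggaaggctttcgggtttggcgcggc
ZNF91, chr19:23395472-23395721, minus strand: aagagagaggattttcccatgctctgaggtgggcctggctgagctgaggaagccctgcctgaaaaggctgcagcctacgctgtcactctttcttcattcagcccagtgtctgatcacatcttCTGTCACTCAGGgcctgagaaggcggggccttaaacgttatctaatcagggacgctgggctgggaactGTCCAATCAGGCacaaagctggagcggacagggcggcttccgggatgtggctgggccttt
ZNF43, chr19:21836183-21836432, minus strand: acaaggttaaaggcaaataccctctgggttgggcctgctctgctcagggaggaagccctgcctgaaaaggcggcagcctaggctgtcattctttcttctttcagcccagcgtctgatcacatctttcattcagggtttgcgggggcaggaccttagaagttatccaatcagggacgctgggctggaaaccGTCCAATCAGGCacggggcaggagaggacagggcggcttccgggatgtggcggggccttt
ZNF101, chr19:19668589-19668838, plus strand: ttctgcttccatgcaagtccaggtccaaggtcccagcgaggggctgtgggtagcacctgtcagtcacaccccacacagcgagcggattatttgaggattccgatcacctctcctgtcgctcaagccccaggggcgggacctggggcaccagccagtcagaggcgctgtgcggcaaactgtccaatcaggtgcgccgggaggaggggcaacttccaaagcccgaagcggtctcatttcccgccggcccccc
ZNF138, chr7:64794178-64794427, plus strand: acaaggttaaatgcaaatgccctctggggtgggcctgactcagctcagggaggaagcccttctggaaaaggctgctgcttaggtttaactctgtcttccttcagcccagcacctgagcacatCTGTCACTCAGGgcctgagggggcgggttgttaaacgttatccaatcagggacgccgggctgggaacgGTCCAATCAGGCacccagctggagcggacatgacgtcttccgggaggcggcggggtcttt

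The first block stood in 18 of the 28 members (64.3%) and in 0.108% of all 35116 promoter windows, counted on both strands. The second block stood in 18 members (64.3%) and in 0.0911% of all windows. Both occurred together in 12 members, and 24 members had at least 1 of them. The first block began at a median position of -125.5 relative to the start, with a range from -130 to -69, and the second at a median position of -59, with a range from -60 to -53. With 1 changed letter allowed, and on the gene's own strand only, the first block was found in 22 members and the second in 26. How many of all windows hold such near matches was not counted. The second block holds a CCAAT box, a short promoter element to which the factor NF-Y is known to bind. The letters CCAAT, on either strand, were in all 28 member windows and in 34.6% of all windows. A match is a match of letters and not a measured binding site.

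**Figure D1:**
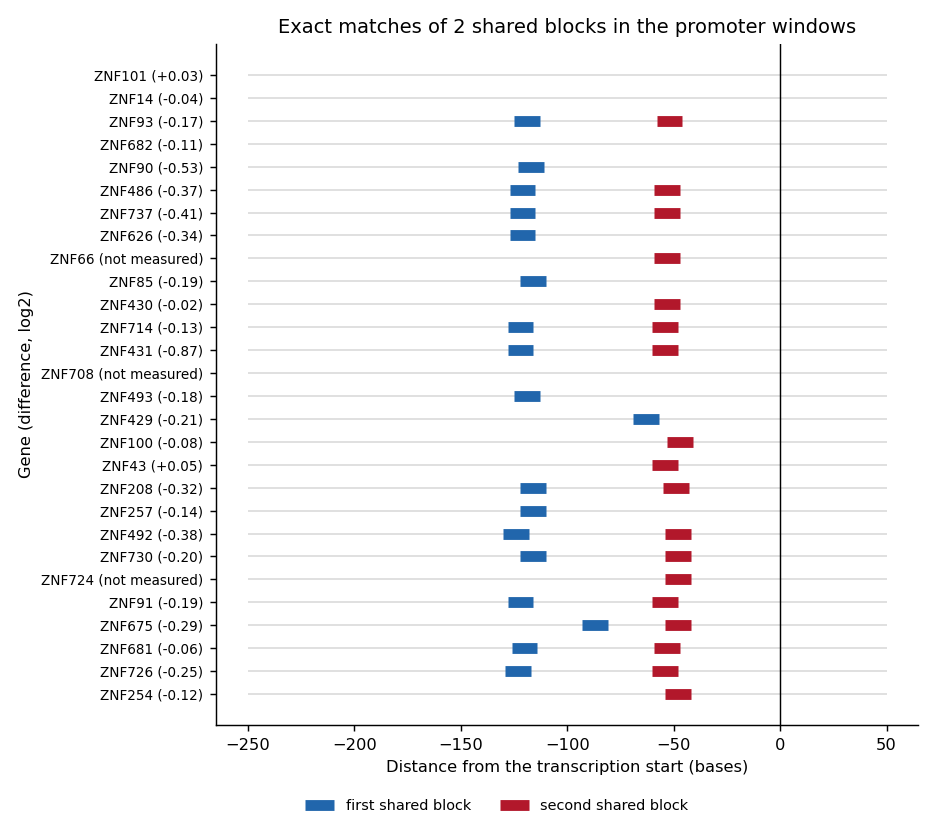
Position of exact matches to the 2 shared blocks in the promoter windows of 28 members, in genome order, against the distance from the transcription start in bases; the number beside each name is the difference in expression, substate 2 minus substate 1 (log2). The first block (blue) lies mostly near -125.5 and the second (red) near -59, and ZNF101, ZNF14 and ZNF682 have neither among the measured members.

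Measured members with both blocks had a median difference of -0.27 (12 genes, from -0.87 to -0.06, all 12 lower in substate 2). Those with 1 block had a median of -0.16 (10 genes, 9 of them lower), and the 3 with neither, ZNF101, ZNF14 and ZNF682, had 0.03, -0.04 and -0.11. These ranges overlap, and the blocks were found in the members themselves. The groups also rest on exact matches. With 1 changed letter allowed, ZNF14 and ZNF682 from the group with neither had both blocks, and ZNF101 had the second. From the group with 1 block, ZNF90, ZNF85, ZNF493, ZNF429, ZNF257 and ZNF254 then had both as well, so most of these genes would change group. The measured members ZNF253 (-0.54), ZNF676 (-0.46), ZNF728 (-0.27), ZNF99 (-0.26) and ZNF729 (-0.21) had no promoter window and are in none of the groups. Outside the members, 19 measured genes had at least 1 block, with a median difference of -0.03, and 10 of them were lower in substate 2, where 40.2% of all measured genes were. The 3 of these with both blocks were ZNF138 (-0.49), ZNF107 (-0.47) and ZNF195 (-0.08). ZNF138 and ZNF107 belong to a related cluster of chromosome 7, described below, in which all 8 measured genes were lower. Block and cluster cannot be told apart for them. Of 7 with the second block alone on their own strand, among them ZNF273 of that cluster, 5 were lower (median -0.19). Of 8 with the first block alone 2 were lower (median 0.15).

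The levels of the members were then compared between the arrays. Signals are given as log2 of the intensity minus the 75th percentile of all probes of the same array, so that 0 is the 75th percentile, and a difference is substate 2 minus substate 1. Of the 30 measured members 28 were lower in substate 2, where 40.2% of the 16001 measured genes were lower. The median difference of the members was -0.21, or 1.15-fold lower, with an SD of 0.19 across members. The median of all measured genes was 0.08 with an SD of 0.38 across genes. The shift was small for each gene. No member was 2-fold or more lower, where 1.07% of all genes were, and none was 2-fold or more higher. Relative to the median of all genes the members were 1.22-fold lower. All 30 lay below that median, so that the longest stretch of neighbouring measured members below it ran over the whole row from ZNF101 to ZNF254. The longest stretch below 0 held 15 members, from ZNF14 to ZNF100. Among the lowest 25% of all genes lay 20 members, and among the highest 25% lay 0. The count lower than substate 1 was 26 of 30 when the arrays were centred on their medians instead, and 29 of 30 under quantile or loess normalisation.

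**Figure D2:**
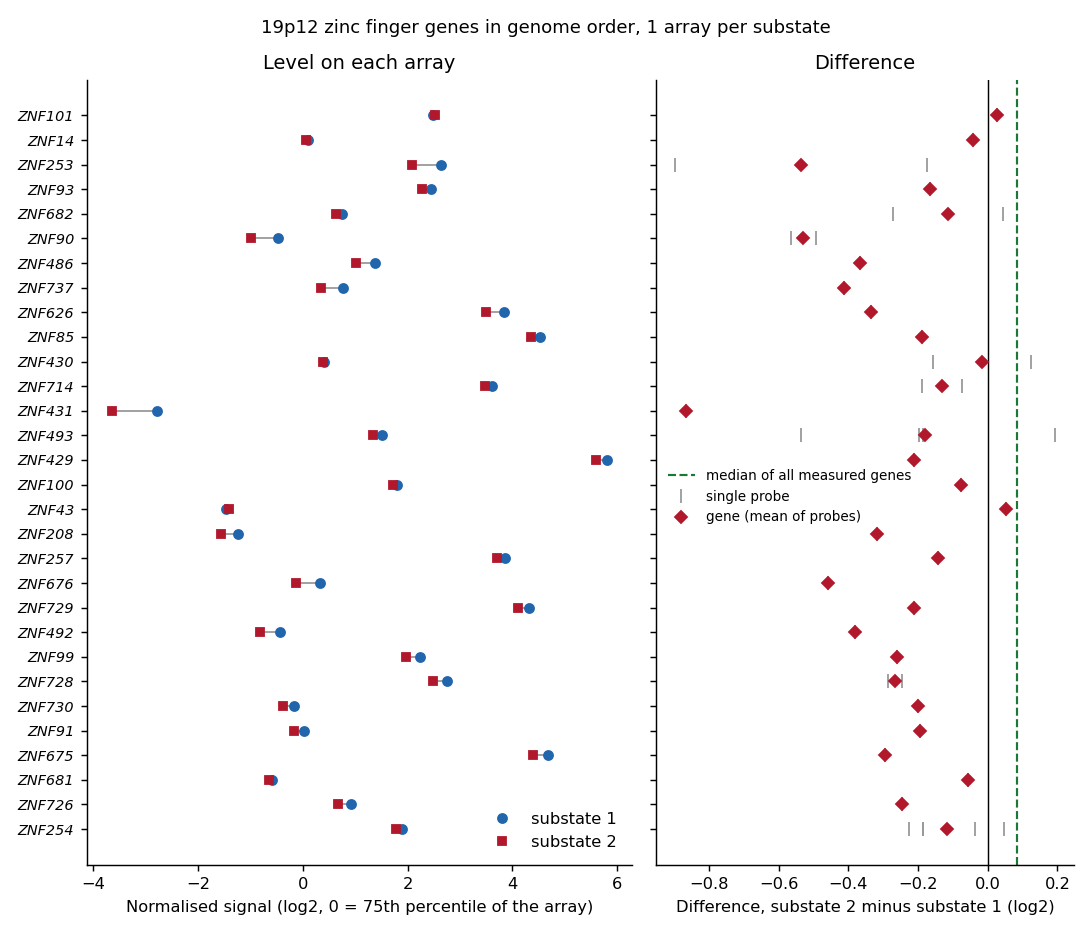
Normalised signal (log2) of the 30 measured members on each array (left, circles for substate 1 and squares for substate 2) and their differences (right), in genome order. Diamonds are means of the probes of a gene and ticks are single measured probes, also of genes with only 1. Levels of different genes are not comparable, since each probe binds with its own strength. In the right panel 28 diamonds lie left of 0 and all 30 lie left of the dashed median of all genes at 0.08.

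The error that these arrays carry is that between spots of the same probe. For a difference between single spots it had an SD of 0.072, from 289 probes of substate 1 and 287 of substate 2 that were printed 10 or more times. It covers printing and hybridisation only, and leaves out culture, RNA extraction and labelling. Of the 43 measured member probes 37 were lower in substate 2 and 6 were higher, where 44% of all measured probes were lower. Lower by more than 2 such SDs were 32 of the 43 member probes, where 30.1% of all 29883 measured probes were, and 1 member probe was higher by as much, where 40.1% of all were.

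ZNF431, known as a repressor of the Hedgehog receptor gene PTCH1, had the largest difference. Its normalised signal was -2.77 in substate 1 and -3.64 in substate 2, which is 1.82-fold lower. It rested on 1 probe with raw intensities of 45.9 and 22.1, the dimmest member probe that was still well above background. The next dimmer member probe, that of ZNF708, read 9.84 and 4.26 and was well above background on neither array, so no fold is given for it.

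ZNF253 was 1.45-fold lower as a mean of 2 probes, which differed in size. One probe had 5.76 in substate 1 and 5.59 in substate 2 (a difference of -0.17), and the other -0.51 and -1.40 (a difference of -0.90). The size of its shift therefore depended on the probe, whereas the direction did not.

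ZNF90 had 2 probes that lay close together. Their signals were -0.49 and -0.44 in substate 1 and -1.05 and -0.93 in substate 2, with differences of -0.57 and -0.49. ZNF90 was thus the member with the largest difference on which more than 1 probe came out alike, at 1.44-fold lower.

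ZNF676, at a locus known from studies of telomere length, had 0.33 in substate 1 and -0.13 in substate 2 and was 1.37-fold lower. ZNF737 had 0.76 and 0.35 and was 1.33-fold lower. These 5 genes lay between percentiles 1.73 and 9.40 of all measured genes. Next in order came ZNF492 (-0.38), ZNF486 (-0.37), ZNF626 (-0.34) and ZNF208 (-0.32), the last again a gene known from telomere length studies.

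ZNF91 (-0.19) and ZNF93 (-0.17), known as retrotransposon repressors, lay near the median of the members (-0.21). ZNF91, which is known to silence SVA elements, read 0.02 in substate 1 and -0.17 in substate 2. It was 1.14-fold lower and lay at percentile 21.9 of all genes. ZNF93, which is known to silence a group of LINE-1 elements, had 2.45 and 2.28 and was 1.12-fold lower at percentile 24.1. ZNF675, known as TIZ for its binding to the signalling adaptor TRAF6, had 4.69 and 4.39 and was 1.23-fold lower.

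ZNF43 and ZNF101 were the only measured members that were higher in substate 2 as a mean of their probes. ZNF43 had -1.46 in substate 1 and -1.41 in substate 2, and ZNF101 had 2.49 and 2.52. Their differences of 0.05 and 0.03 were smaller than the spot noise SD of 0.072. ZNF101 and ZNF14, with a difference of -0.04, are the outermost members on the side of the chromosome tip. ZNF430 (-0.02) and ZNF681 (-0.06), which lie further inside the cluster, also differed by less than the spot noise.

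The other 13 measured members had differences between -0.27 and -0.08. In genome order they were ZNF682 (-0.11), ZNF85 (-0.19), ZNF714 (-0.13), ZNF493 (-0.18), ZNF429 (-0.21), ZNF100 (-0.08), ZNF257 (-0.14), ZNF729 (-0.21), ZNF99 (-0.26), ZNF728 (-0.27), ZNF730 (-0.20), ZNF726 (-0.25) and ZNF254 (-0.12). Small differences thus ran through the cluster rather than at 1 end of it.

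Probes of the same gene gave a measure of how firm these values are. Of the 8 members with 2 or more measured probes, 4 had probes that were all lower and 4 had probes of both signs. The 2 probes of ZNF728 lay at -0.29 and -0.25. The 4 probes of ZNF493 ranged from -0.54 to 0.19, and the 5 probes of ZNF254 from -0.22 to 0.05. The 2 probes of ZNF430 lay at -0.16 and 0.13, and those of ZNF682 at -0.27 and 0.05. In these 4 genes the probe above 0 was the dimmer or dimmest one, with raw intensities between 94.5 and 367.3 in substate 1.

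The signal went along with how closely the probes lay together, among all measured probes as well as among those of the members. The 12 member probes with a mean normalised signal of 3 or more, from 11 genes, were all lower in substate 2, with differences from -0.34 to -0.14 and a median of -0.20. Their SD of 0.053 was smaller than the spot noise SD of 0.072, whereas all 4993 probes of that signal had an SD of 0.27 and a median of 0.19, with 25.9% of them lower. Among these were the brightest probes of ZNF254 (6.71 in substate 1 and 6.48 in substate 2), ZNF714 (6.16 and 5.97), ZNF429 (5.80 and 5.59) and ZNF253. For 17 member probes of a signal between 0 and 3 the median was -0.19 with an SD of 0.17, and 15 were lower. For 14 dimmer member probes the median was -0.20 with an SD of 0.35, and 10 were lower. All measured probes in these ranges had medians of 0.07 and -0.02 and SDs of 0.33 and 0.46, with 41.3% and 51.6% of them lower. The boundaries of signal were set after the values had been seen, and whether bright probes share the RNA they bind was not tested.

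**Figure D3:**
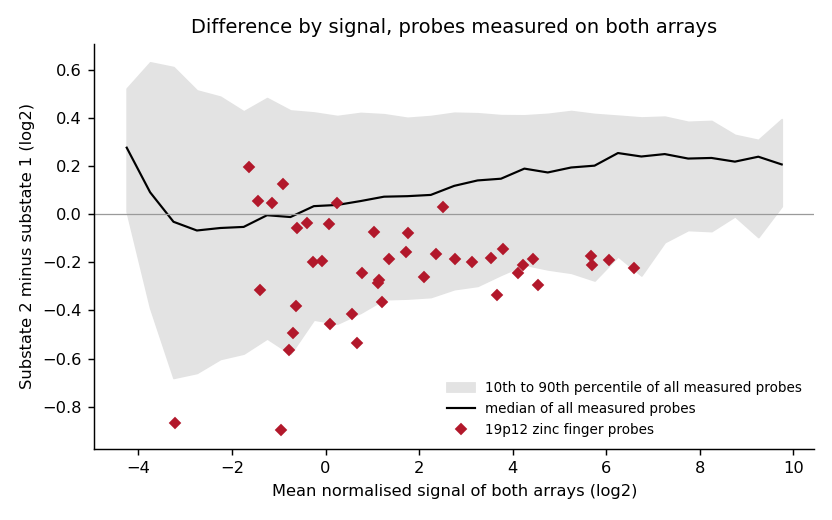
Difference between the substates (log2) against the mean normalised signal (log2) for the 43 measured member probes (diamonds), with the median (line) and the 10th to 90th percentile (grey) of all measured probes in steps of signal. The 12 member probes at a signal of 3 or more lie between -0.34 and -0.14, below the line, and the dimmer ones spread from -0.90 to 0.19.

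By the Z-score of the study, which divides the deviation from the mean difference by the SD over all 58201 probes and takes 2 as its limit in either direction, 1 of the 48 member probes was past the limits, where 6.33% of all probes were. It was a probe of ZNF729 with raw intensities of 3.24 and 7.79, well above background on neither array. The other ZNF729 probe, measured on both arrays, had 4.32 in substate 1 and 4.10 in substate 2. No measured member probe was past the limits, the lowest Z-score being -1.53 for the dimmer ZNF253 probe. That count depended on how the SD was taken. With the SD over measured probes alone, 2 of 43 member probes, of ZNF253 and ZNF431, were past the lower limit, where 4.68% of measured probes were past either limit. When the median absolute deviation set the SD, 5 of 48 were past a limit, 4 of them lower, where 17.4% of all probes were. Of these 5 only the probes of ZNF253 and ZNF431 were measured on both arrays. After normexp background correction 8 were past the lower limit, all measured on both arrays, where 4.9% of all probes were past either limit. They were 2 probes of ZNF493 and 1 each of ZNF253, ZNF486, ZNF675, ZNF676, ZNF737 and ZNF99.

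To see where the members differ from other genes, the same values were taken for lists made by symbol and place. The other genes of chromosome 19 with a ZNF symbol, which include antisense transcripts named after them, had a median difference of 0.05, and 89 of the 199 that were measured (44.7%) lay below 0. They spanned -1.54 to 0.73. Their lowest were ZNF667-AS1 (2.90-fold lower), ZNF790-AS1 (2.04-fold lower), ZNF667 (1.95-fold lower), ZNF841 (1.68-fold lower) and ZNF606-AS1 (1.68-fold lower), all of the long arm. Their highest were ZNF784 (1.66-fold higher), ZNF628 (1.66-fold higher), ZNF441 (1.54-fold higher), ZNF837 (1.53-fold higher) and ZNF574 (1.49-fold higher). The median was 0.04 for 41 genes of the short arm and 0.05 for 158 genes beyond the members. ZNF667-AS1, ZNF790-AS1 and ZNF667 were thus further down than any member, ZNF667 as a mean of 2 probes (-1.45 and -0.47). The medians of these lists lay near that of all genes. A run of low neighbours occurred among them as well. From ZNF480 (-0.33) to ZNF28 (-0.10) on the long arm every measured gene was lower, between ZNF766 (0.35) and ZNF468 (0.12), which were higher. That run was picked after its values had been seen. Without strand-specific knowledge of the probes, an antisense transcript and the gene it overlaps are uncertain. Genes of chromosome 19 without a ZNF symbol had a median of 0.12 over 924 genes.

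**Figure D4:**
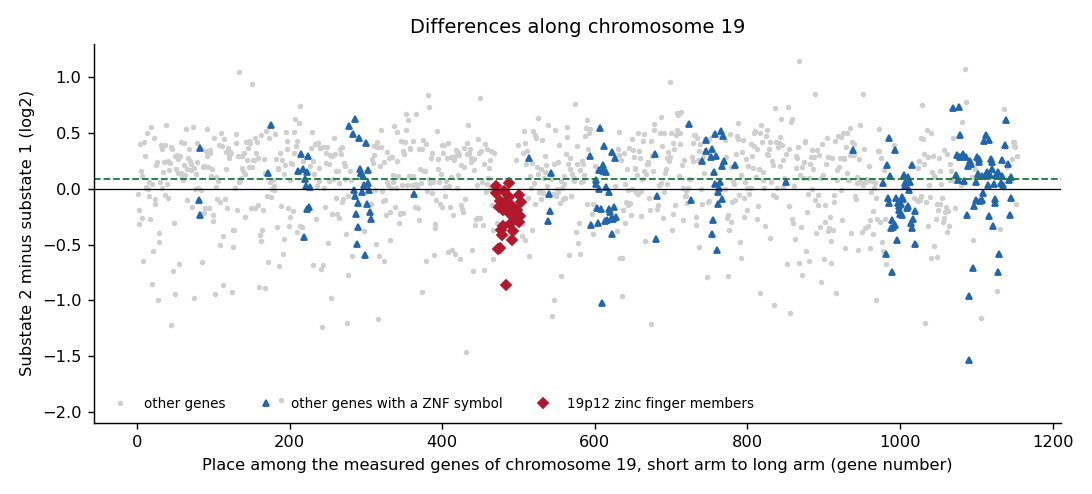
Difference between the substates (log2) of every measured gene of chromosome 19 by its place in the order of measured genes. The members (red) form a group of which 28 of 30 lie below 0, whereas other genes with a ZNF symbol (blue) lie on both sides of the dashed median of all genes at 0.08.

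The genes between and beside the members did not share 1 direction. Of the non-member genes between ZNF101 and ZNF254, 4 were measured. The noncoding genes LINC00663 and LINC00664 were lower, by differences of -0.31 and -0.42, whereas the pseudogene IPO5P1 (0.26) and LINC01224 (0.39) were higher in substate 2. The value of LINC00664 is a mean of 2 probes. The brighter one (raw intensity 604.3 in substate 1) differed by -0.01 and the dimmer one (38.4) by -0.82. On the side of the chromosome tip the 5 nearest measured genes were YJEFN3 (-0.15), CILP2 (-0.63), PBX4 (-0.37), GMIP (0.32) and ATP13A1 (-0.16). On the side of the long arm they were LINC00662 (-0.32), LINC02987 (-0.42), UQCRFS1 (0.32), VSTM2B (0.52) and POP4 (0.41).

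A related zinc finger cluster of chromosome 7, from ZNF727 to ZNF92, was compared as well, a list added after the values of the members had been seen. Of its 11 genes 8 were measured, and all 8 were lower in substate 2, with a median difference of -0.33 (from -0.49 to -0.02). ZNF138 went from 2.44 on the substate 1 array to 1.95 on the other (1.40-fold lower), and ZNF107 from 1.85 to 1.38 (1.39-fold lower). ZNF117 was 1.36-fold lower, ZNF735 and ZNF736 were both 1.26-fold lower, ZNF273 was 1.15-fold lower and ZNF727 1.12-fold lower. The value of ZNF273 is a mean of 2 probes. The brighter one (raw intensity 1041.8 in substate 1) differed by -0.02, within the spot noise, and the dimmer one (231.1) by -0.40. ZNF92 differed by -0.02, within the spot noise. The first promoter block was in 3 and the second in 4 of the 10 genes of this cluster that had a promoter window, against 7 and 1 of 224 for the other genes of chromosome 19 with a ZNF symbol. Zinc finger genes of other chromosomes outside this cluster had a median of 0.04 over 234 genes, with 43.2% of them lower. A run of low neighbours was found among these genes too, though 133 of the 234 were higher. ZNF595 (-0.75), ZNF718 (-0.44), ZNF876P (-0.64), ZNF732 (-0.29), ZNF141 (-0.38) and ZNF721 (-0.46), next to each other in the order of measured ZNF genes, were all lower. That run was picked after its values had been seen.

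**Figure D5:**
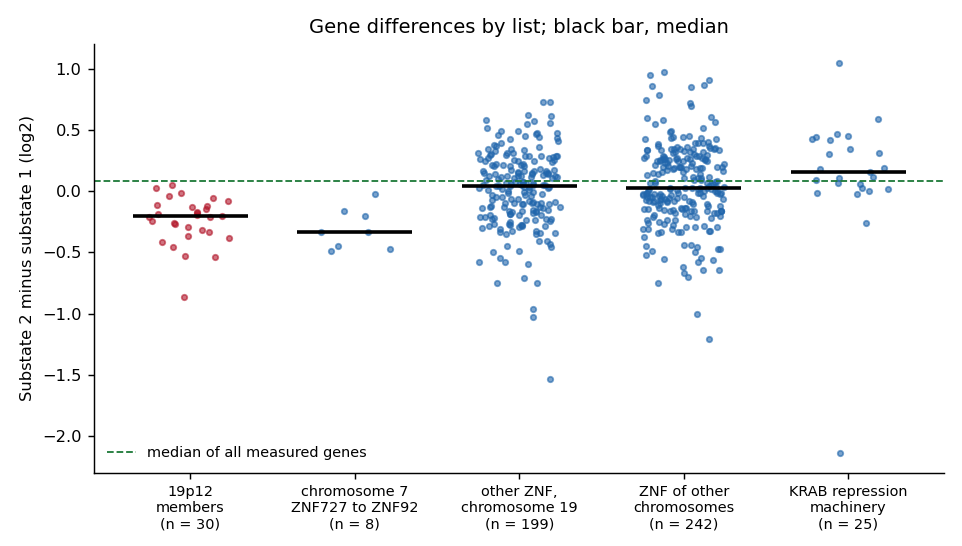
Differences between the substates (log2) of single genes (points) with the median of each list (black bar) and of all measured genes (dashed). The members lie at a median of -0.21 and the chromosome 7 cluster, which is also part of the list of other chromosomes, at -0.33, against 0.05 and 0.03 for the larger ZNF lists and 0.15 for the KRAB repression machinery.

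The proteins through which KRAB zinc finger proteins act were the last list. All 25 genes were measured, with a median difference of 0.15, and 4 of them were lower in substate 2. Of all measured genes 40.2% were lower, with a median of 0.08. With loess centring, which takes out the trend with signal, the medians were 0.076 for the list and 0.035 for all genes. TRIM28, the corepressor that binds the KRAB domain, was at 5.34 in substate 1 and at 5.76 in substate 2 and thus 1.34-fold higher, a difference of 0.42. All measured probes with a signal of 3 or more had a median difference of 0.19. The methyltransferase SETDB1 differed by 0.06 and its partner ATF7IP by -0.02. The heterochromatin protein gene CBX3 was 1.23-fold higher as a mean of 2 probes. Its bright probe (raw intensity 18131 in substate 1) differed by 0.12 and its dim one (31.6) by 0.48. ZNF274, which is known to bind zinc finger genes themselves, differed by 0.11. Past 2-fold were UHRF1, which maintains DNA methylation (2.06-fold higher), and ZFP57, a KRAB zinc finger protein that guards imprinted genes (4.41-fold lower, 1 probe, -1.65 in substate 1 and -3.79 in substate 2). ATRX (-0.26) and MPHOSPH8 (-0.02) were the others below 0 beside ATF7IP and ZFP57. The list as a whole was thus not lower along with the 19p12 genes.

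The labels were checked against marker genes. POU5F1, NANOG, SOX2, LIN28A, LIN28B and DPPA4 were well above background on both arrays, with differences from 0.07 to 0.42, and no probe was matched for TDGF1. VIM differed by 2.53, in the direction of the staining that named the substates, and CDH1 by -1.47 and ZEB1 by 2.54. PAX6, SOX17, GATA6 and TBXT were well above background on neither array, SOX1 on the substate 2 array only, and COL1A1 (-0.49) and THY1 (-0.11) on both. Whether any of these differences has a part in that of the zinc finger genes was not tested.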

How the data were processed

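Total RNA of substate 1 and substate 2 cells was hybridised as Cy3-labelled cRNA to 1 Agilent SurePrint G3 Human GE 8 x 60 K array each, in bulk and without replicates, on the same slide. The authors deposited the scanner output, in which each spot has a background-subtracted intensity, and flags (another code of 0 or 1 per spot) for being well above background, saturated or an outlier. Per the file headers it was made with Feature Extraction 11.5.1.1, protocol GE1_1105_Oct12, for an array design annotated on hg19. The authors also deposited log2 values of the same arrays, made in GeneSpring with a floor of 1 and with the 75th percentile of the chip as the reference, and with no baseline transformation. These matched the values computed here to within 0.01 for all 58201 probes, up to a shift of 0.006 and 0.005, and their medians were -3.56 and -3.61. Scale, centring and direction were thereby settled.

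From the intensity, with a floor of 1 that affected 0 spots, log2 was taken, outlier spots (71 and 101) were left out, and the mean over a probe's spots was taken relative to the array's 75th percentile (an intensity of 313.7 and 275.4). Of 60901 non-control spots, 57.4% and 54.7% were well above background, and 0 were saturated. Gene values were means over probes measured on both arrays. Probes were named by RefSeq accession without version in a table for GRCh38.p14 (31104 of 58201 probes, 53.4%); that table served for names and gene order only, since its build differs from that of the array. The number of arrays limits the precision, no p-value is given, and the fold rule was 2-fold. The members and lists were chosen with earlier results of these data known. Named were all members, the 5 lowest and those above 0, the genes of the KRAB list past 2-fold with 5 set ones, the 5 lowest and highest other ZNF genes of chromosome 19, and 5 flanking genes a side. The rule also asked for every member above the median of all genes, of which there were none. The spot and signal classes, the promoter blocks, the genes between the members, the chromosome 7 list and the count below the median of all genes were added after seeing the data. Alternatives were median centring, quantile normalisation, loess centring (span 0.3), normexp (offset 50, limma 3.58.1 in R 4.3.3, on median spot and background signals, a departure from the plan, which named mean spot signals, a column that the files used here do not hold), the deposited values, other filters and gene summaries. Scaling was tested on simulated data. Python 3.11.15 and statsmodels 0.14.6 were used.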

Additional observations from a re-analysis of the deposited data

How the results depend on the processing

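The direction of the members' shift was kept under all 11 alternatives run on it, with a median difference between -0.29 and -0.16. Some of these could hardly change the member values. The deposited values matched those computed here to within 0.01. Letting in probes above background on only 1 array, or keeping only curated messenger RNA probes, left the same member probes and a median of -0.21. Between 26 and 29 of 30 members were lower, or 22 of 23 among brighter probes and 27 of 31 with no filter on dim probes. The median moved by more than the spot noise to -0.28 under quantile normalisation and -0.29 under loess centring. The median of the members minus that of all genes was -0.33 to -0.28, and 29 of 30 or more were below it, or 23 of 23 among brighter probes and 30 of 31 with no filter. With no filter on dim probes 1 member, ZNF708, passed 2-fold, because dim probes were let in. The Z-score counts of member probes were 8 with normexp, 2 with the SD over measured probes and 5 when the median absolute deviation set the SD, in place of 1, where 4.9%, 4.68% and 17.4% of all probes scored were past the limits. The cause was not tested. The median of the chromosome 7 cluster was -0.26 with normexp, and that of the KRAB repression list was 0.076 with loess centring. The other medians moved by less than the spot noise under all 11 alternatives. No paired analysis was possible because there was a single array for either substate. The count below the median of all genes and the chromosome 7 list were added after seeing the data. Signal over background limits the dim probes, and shifts as small as those of most members cannot be told from array-to-array differences without a replicate.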
